A study of Mus musculus with 4 samples.

Results

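Serotonin, dopamine and noradrenaline are made, packed, taken up again and broken down by a small set of proteins, and 9 of the genes that encode them were examined here. They are the synthesis enzymes Tph2, Th, Ddc and Dbh, the transporters Slc6a4, Slc6a3 and Slc18a2, and the oxidases Maoa and Maob. The 9 genes were chosen by symbol with their values on these arrays in view, both the difference between the groups and the difference between the arrays of one group, so that these values are given as a description without a test. Each gene had 1 row of the 21789 rows that carry exactly 1 gene symbol, which stand for 19938 genes.

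The mice were of the outbred ICR stock and received a daily intraperitoneal injection of ketamine, a blocker of the NMDA receptor, or of saline from 1 month of age. The ketamine dose was 30 mg/kg and treatment lasted 3 months, after which the prefrontal cortex was dissected. RNA was hybridised to 4 one-colour Affymetrix Mouse Gene 1.0 ST arrays, 2 for ketamine and 2 for saline, from samples drawn at random. The labels are at odds with each other: an array whose title says ketamine has saline in its source field, and the other way round, and the labels give female mice where the methods give male mice. The groups are named here by title, as arrays titled ketamine and arrays titled saline, and every difference is titled ketamine minus titled saline on the log2 scale. By the source field each sign would turn.

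Array medians were 6.04 and 6.04 on the arrays titled ketamine, against 5.90 and 5.91 on the arrays titled saline, and all tested rows had a median difference of 0.13. Olfactory receptor rows, taken as a guide to the level of unexpressed genes, had 95th percentiles of 4.56 and 4.46 for titled ketamine and of 4.20 and 4.43 for titled saline. This is called the olfactory receptor level below. The labelled tissue was checked against its markers. Tbr1, which encodes a transcription factor of projection neurons in the cortex, read 3.73 and 3.69 on the arrays titled ketamine, under that level, while the arrays titled saline read 8.37 and 8.44. Of 8 measured markers of the cerebral cortex, 6 were lower on the arrays titled ketamine by limma, and their mean was 4.96 and 4.91 there, against 7.77 and 7.84 on the arrays titled saline. By limma 23.4% of all rows were higher and 9.71% lower. Of 11 measured cerebellar markers, 11 were higher, with means of 9.87 and 9.70 for titled ketamine, against 6.25 and 5.48 for titled saline. Title, treatment and tissue therefore cannot be told apart in any difference between the groups, and fewer cells of a type and less RNA per cell cannot be told apart either.

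Monoamine neurons are few, and their cell bodies lie mainly in the brainstem: serotonin neurons in the raphe nuclei, noradrenaline neurons in the locus coeruleus and neighbouring groups, and dopamine neurons in the ventral midbrain. Their axons reach the cortex, striatum and cerebellum, while the transcripts stay largely in the cell bodies. A hydroxylase carries out the first and limiting step of synthesis, a decarboxylase the next, and dopamine is turned into noradrenaline by one more enzyme. A vesicular carrier fills the synaptic vesicles, a carrier in the plasma membrane ends the signal, and monoamine oxidase degrades the amine. The oxidases are also made by glia and other cells, and Th is on the list of olfactory bulb markers as well.

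Of the 9 genes, 3 had both values titled ketamine above both values titled saline, and the other 6 had them below. Over all rows, 48.4% were higher and 21.5% lower without overlap. Past 1.3-fold, the fold that the study took as its cutoff, 2 genes were higher, Dbh and Maoa, and 6 lower, among 24.3% of all rows that were higher and 9.87% that were lower. Past 2-fold, 1 was higher and 3 were lower, against 3.69% and 2.98% of all rows. The genes that were higher were thus the last enzyme of noradrenaline synthesis and both oxidases. Those that were lower were Tph2, Slc6a4, Slc6a3, the vesicular carrier Slc18a2, and Th and Ddc, which also serve noradrenaline synthesis. For Tph2, Slc6a4 and Slc18a2 the size of the difference came mostly from 1 array, as the plot of values on each array shows.

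**Figure D1:**
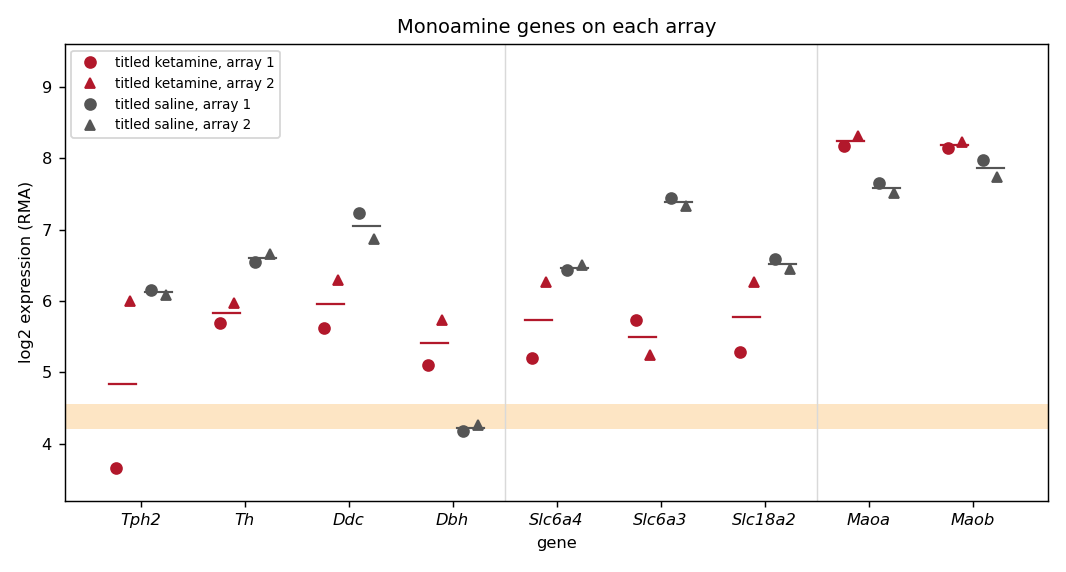
Log2 expression (y axis) of the 9 monoamine genes (x axis), array by array, red for those titled ketamine and grey for those titled saline, with circles for array 1, triangles for array 2 and lines for the means of 2 arrays. The orange band spans the 95th percentiles of olfactory receptor rows, from 4.20 to 4.56; Tph2 lies under it on titled ketamine array 1 at 3.67 and far above it on array 2 at 6.002.

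Tph2 encodes the neuronal tryptophan hydroxylase, which carries out the first step of serotonin synthesis in the brain. It read 3.67 and 6.002 on the arrays titled ketamine, against 6.15 and 6.09 on the arrays titled saline. Array 1 titled ketamine thus stood alone, under the olfactory receptor level, while array 2 lay just below the arrays titled saline. The means were 4.83 ± 1.65 (SD, n = 2 arrays) for titled ketamine and 6.12 ± 0.0467 (SD, n = 2) for titled saline, a difference of -1.29. Without titled ketamine array 1 the difference of Tph2 was -0.12, and without array 2 it was -2.46, so that 1 array sets its size. As that array was under the olfactory receptor level, the size is not resolved.

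Th encodes tyrosine hydroxylase, the first enzyme of dopamine and noradrenaline synthesis. It read 5.69 and 5.97 on the arrays titled ketamine, against 6.54 and 6.66 on the arrays titled saline, a difference of -0.77. The groups did not overlap, and the difference lay between -0.91 and -0.64 with any 1 array left out. Ddc encodes the aromatic amino acid decarboxylase, shared by the serotonin and the catecholamine pathways. It read 5.62 and 6.29 on the arrays titled ketamine, against 7.23 and 6.87 on the arrays titled saline. Its difference was -1.09, and the arrays of each title stood further apart than for Th, by 0.67 for titled ketamine (array 2 the higher) and by 0.37 for titled saline (array 1 the higher). With 1 array left out, the difference of Ddc ranged from -1.43 to -0.76.

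Dbh encodes dopamine beta-hydroxylase, which turns dopamine into noradrenaline inside vesicles and marks noradrenaline and adrenaline cells. It went the other way. It read 5.10 and 5.73 on the arrays titled ketamine, against 4.17 and 4.26 on the arrays titled saline. Both values titled ketamine were above the olfactory receptor level of their arrays and both values titled saline were under it, so that the size of the difference, 1.199, is not resolved. It was 1.52 without titled ketamine array 1 and 0.88 without array 2. Among the synthesis enzymes, then, Th, Ddc and Tph2 were lower and Dbh higher on the arrays titled ketamine.

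The membrane carriers are named for the amine they take up. Slc6a3, the dopamine transporter, had the largest difference of the 9 genes with all arrays, while without titled ketamine array 2 that of Tph2 was larger. It read 5.74 and 5.24 on the arrays titled ketamine, against 7.44 and 7.33 on the arrays titled saline. The means were 5.49 ± 0.353 for titled ketamine and 7.39 ± 0.0791 for titled saline (SD, n = 2 each). Its difference was -1.90, a ratio of 0.268, and 98.6% of all rows had a smaller difference in size. It was also the 1 gene of the 9 that read lower on titled ketamine array 2 than on array 1, by 0.50. Leaving out any 1 array kept the difference of Slc6a3 between -2.15 and -1.65.

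Slc6a4, the serotonin transporter, read 5.20 and 6.26 on the arrays titled ketamine, against 6.43 and 6.51 on the arrays titled saline. As for Tph2, array 1 titled ketamine was low and array 2 close to the arrays titled saline. The difference of Slc6a4 was -0.74 with all arrays, -0.20 without titled ketamine array 1 and -1.27 without array 2. Slc18a2, the vesicular monoamine transporter of the brain, loads serotonin, dopamine, noradrenaline and histamine alike. It read 5.28 and 6.27 on the arrays titled ketamine, against 6.59 and 6.44 on the arrays titled saline. Its difference was -0.75 with all arrays, -0.25 without titled ketamine array 1 and -1.24 without array 2. Without titled ketamine array 1, then, Tph2, Slc6a4 and Slc18a2 were each within 1.3-fold of the arrays titled saline, and 3 of the 9 genes were lower past 1.3-fold, namely Th, Ddc and Slc6a3.

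**Figure D2:**
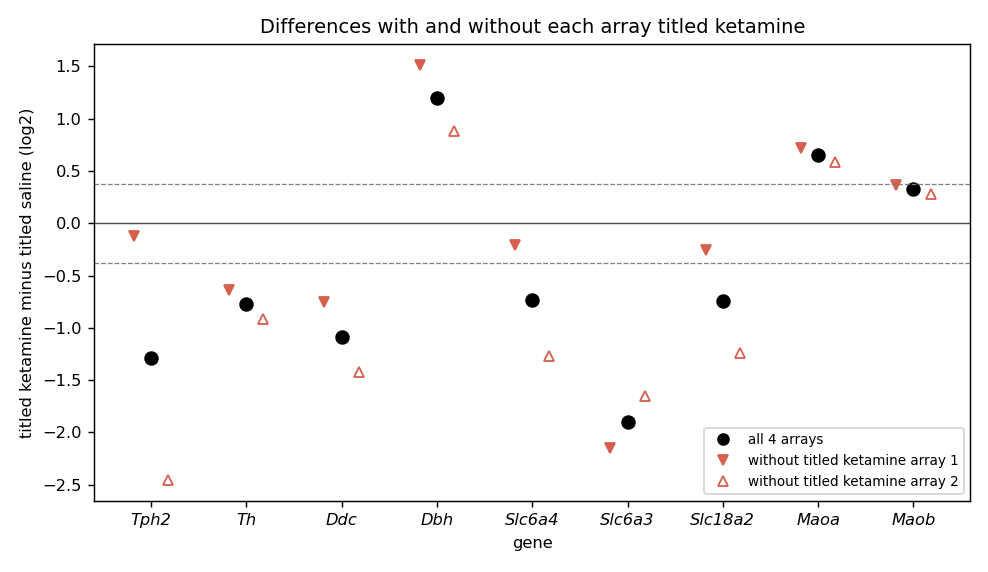
Difference between titled ketamine and titled saline on the log2 scale (y axis) for each monoamine gene (x axis), with all 4 arrays (black circles), without titled ketamine array 1 (filled triangles) and without titled ketamine array 2 (open triangles). Dashed lines mark 1.3-fold; without array 1 Tph2, Slc6a4 and Slc18a2 move to -0.12, -0.20 and -0.25, while Slc6a3 lies at -2.15 without array 1 and -1.65 without array 2.

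Maoa and Maob encode the 2 monoamine oxidases of the outer mitochondrial membrane, which lie side by side on the X chromosome. The A form prefers serotonin and noradrenaline, and the B form is known from astrocytes, serotonin neurons and histamine neurons. Maoa read 8.17 and 8.30 on the arrays titled ketamine, against 7.66 and 7.51 on the arrays titled saline, a difference of 0.65. Maob read 8.14 and 8.22 on the arrays titled ketamine, against 7.98 and 7.74 on the arrays titled saline, a difference of 0.33. Both were higher without overlap, but Maob stayed inside 1.3-fold. With each array centred on its median, the difference was 0.52 for Maoa and 0.19 for Maob, since all rows together were shifted upwards. With any 1 array left out, Maoa ranged from 0.58 to 0.73 and Maob from 0.21 to 0.45.

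The spread between the 2 arrays of one title differed among the genes. On the arrays titled ketamine, 2 of the 9 genes, Tph2 and Slc6a4, were more than 1 apart on the log2 scale, against 0.179% of all rows, and Slc18a2 was 0.99 apart. On the arrays titled saline none was, and 0.0872% of all rows were. The genes were chosen with these gaps known, so nothing is read from the counts. The median size of the gap was 0.64 for the 9 genes on the arrays titled ketamine and 0.12 on those titled saline, while over all rows it was 0.11 for titled ketamine and 0.14 for titled saline. The gap of Tph2, 2.34, was the second in size of the 21789 rows, after that of the gene model AI506816, which went the opposite way with 6.32 on array 1 and 3.09 on array 2. Of the 9 genes, 8 read higher on titled ketamine array 2 than on array 1, Slc6a3 being the exception, against 49% of all rows. For titled saline 3 of the 9 read higher on array 2, against 49.9% of all rows.

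**Figure D3:**
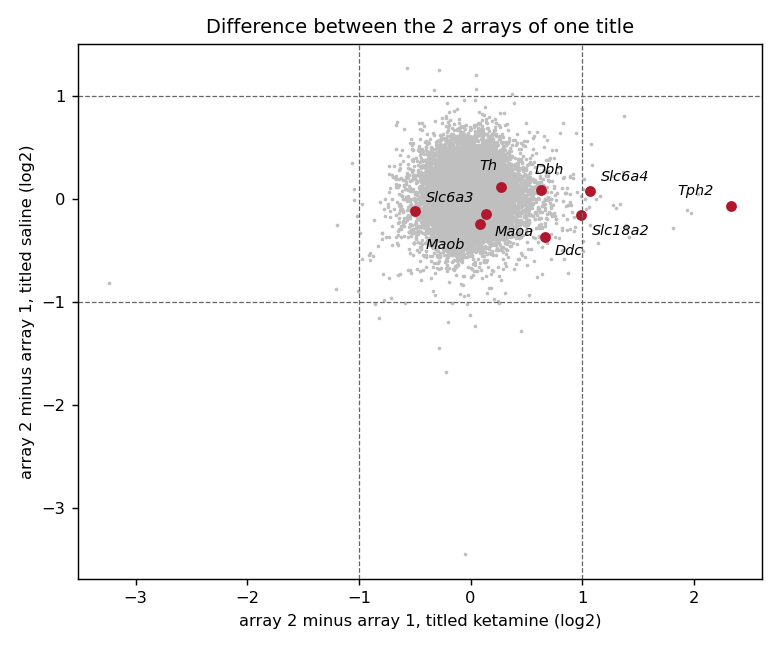
Array 2 minus array 1 on the log2 scale for the arrays titled ketamine (x axis) and the arrays titled saline (y axis); each grey point is 1 of 21789 rows and the red points are the 9 monoamine genes. Dashed lines mark a gap of 1; Tph2 at 2.34 and Slc6a4 at 1.07 lie beyond it for titled ketamine, and all 9 genes lie within it for titled saline.

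Likeness of pattern was measured as the distance between 2 genes over the 4 arrays after subtracting the mean of each gene, among 2203 or 2204 other rows whose values spanned at least 1. The nearest row to Slc6a4 was Slc18a2, and the nearest to Slc18a2 was Slc6a4, at a distance of 0.17 on the log2 scale. Tph2 had no close neighbour: its nearest row, AW551984, lay 0.70 away and was at 5.04 and 6.44 on the arrays titled ketamine, against 7.33 and 7.08 on the arrays titled saline. The next was Gabrq, the theta subunit of GABA receptors, at a distance of 0.71. The nearest row to Dbh was A630089N07Rik, at 0.046, and the nearest named gene to Th was the serotonin receptor gene Htr7, at 0.061. Over 4 arrays such a distance describes these values only.

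Tph2, Slc6a4 and Slc18a2 had the largest gaps of the 9 genes between the arrays titled ketamine. Th and Dbh are catecholamine enzymes that differed in opposite directions. Ddc, which serves catecholamine synthesis too and was lower like Th, is in neither set. To show what these 2 sets share around their transcription starts, the promoter stretches are given 5′ to 3′ from 150 bases before to 20 bases after the start. They were read from RefSeq tables of the GRCm38.p6 assembly, which held 9 windows for 8 of the 9 genes and none for Maob. Tph2 is at chr10:115185003-115185172 on the minus strand, Slc6a4 at chr11:76998447-76998616 on the plus strand and Slc18a2 at chr19:59260728-59260897 on the plus strand. Th is at chr7:142899976-142900145 on the minus strand and Dbh at chr2:27165357-27165526 on the plus strand. Capitals mark matches to the cAMP response element TGACGTCA, the TATA box TATAAA and the GC box GGGCGG, on either strand.
Tph2: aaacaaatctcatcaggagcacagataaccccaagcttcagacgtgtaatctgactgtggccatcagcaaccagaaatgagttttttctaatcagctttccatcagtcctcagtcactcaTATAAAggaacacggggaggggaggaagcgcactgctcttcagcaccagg
Slc6a4: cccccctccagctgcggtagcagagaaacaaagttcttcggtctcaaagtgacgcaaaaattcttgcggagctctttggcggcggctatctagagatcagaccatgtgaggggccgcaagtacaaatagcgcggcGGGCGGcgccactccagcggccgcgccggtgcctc
Slc18a2: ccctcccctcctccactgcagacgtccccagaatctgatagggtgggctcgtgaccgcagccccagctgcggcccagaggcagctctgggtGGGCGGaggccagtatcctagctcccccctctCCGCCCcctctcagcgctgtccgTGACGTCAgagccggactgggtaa
Th: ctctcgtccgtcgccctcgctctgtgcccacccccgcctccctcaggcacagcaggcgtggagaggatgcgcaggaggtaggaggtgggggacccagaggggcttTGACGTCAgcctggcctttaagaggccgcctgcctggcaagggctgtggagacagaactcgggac
Dbh: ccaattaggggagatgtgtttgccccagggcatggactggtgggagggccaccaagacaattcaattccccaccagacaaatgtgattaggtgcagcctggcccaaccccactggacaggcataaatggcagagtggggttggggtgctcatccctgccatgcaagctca

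In the whole windows of 300 bases, the cAMP response element stood in Th and Slc18a2, beginning 45 and 4 bases before the start, and in no other window of the 9 genes. Of 32851 windows of all genes, 1.79% held it. The TATA box was matched in Tph2, 30 bases before the start, and in 1 of the 2 windows of Ddc, against 13.6% of all windows. GC boxes were matched in Th, Slc6a4, Slc6a3, Slc18a2 and Maoa, against 35.7% of all windows, and these do not overlap the other motifs. No motif was thus common to the 3 genes with the largest gaps, Slc6a4 and Slc18a2 shared the GC box, and Dbh held none. A match describes these letters only.

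Neurons of each kind carry further marker genes. The counts below stand beside 23.4% of all rows that were higher by limma and 9.71% that were lower. Of 8 other markers of serotonin neurons, 6 were measured, and by limma 4 were lower and 1 higher on the arrays titled ketamine. Their means were 4.97 and 5.18 there, against 5.52 and 5.62 on the arrays titled saline. Of those lower, Slc17a8 was under the olfactory receptor level on both arrays titled ketamine, and Gata3 and Htr5b on array 1. Htr1a, the autoreceptor of these neurons and also a receptor of forebrain neurons, read 4.79 and 5.65 on the arrays titled ketamine, against 6.76 and 6.70 on those titled saline. Of 4 other markers of noradrenaline neurons, 3 were measured, 2 of them higher, and their means were 5.80 and 5.95 for titled ketamine, against 4.57 and 4.53 for titled saline. These means rest on Tfap2b, which cerebellar interneurons also express: without it, an alternative chosen after seeing the data, they were 4.88 and 5.28 for titled ketamine, against 4.36 and 4.47 for titled saline. Slc6a2 passed and Phox2a, a transcription factor of these neurons, did not, with a difference of 0.41 (limma, adjusted p = 0.0621). Of 11 further markers of midbrain dopamine neurons, 10 were measured, 4 of them lower and none higher. Their means were 5.05 and 4.95 for titled ketamine, against 5.30 and 5.43 for titled saline. Of those lower, Chrna6, Chrnb3 and Ntsr1 were under the olfactory receptor level on both arrays titled ketamine, and Nr4a2 is also made in cortex. Pitx3, a transcription factor of midbrain dopamine neurons, overlapped between the groups, at 5.78 and 5.64 for titled ketamine and 5.33 and 5.82 for titled saline. Of 7 measured striatal markers, 7 were lower on the arrays titled ketamine. The 3 cholinergic markers had a mean of 4.94 on titled ketamine array 1 and 6.17 on array 2, against 5.91 and 5.91 on the arrays titled saline. As for Tph2 array 1 titled ketamine was the lowest, but array 2 lay above the arrays titled saline, in the mean and in Slc5a7 and Slc18a3. Chat, the acetylcholine-forming enzyme and the third of these markers, read 5.01 on array 2, below its 5.13 and 5.31 on the arrays titled saline.

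Markers of other cells and regions moved as well. For titled ketamine, array 2 was above array 1 in 7 of 7 oligodendrocyte markers (median gap 0.38) and 7 of 8 choroid plexus markers (median gap 0.30). It was so in 11 of 12 hindbrain Hox genes (median gap 0.14), whose median gap for titled saline was larger, at 0.31. Over all rows 49% had array 2 above array 1. Other lists had fewer, with 1 of 11 cerebellar, 1 of 10 midbrain dopamine and 4 of 8 cortical markers. Of astrocyte markers it was 5 of 8, and of endothelium and pericyte markers 6 of 10. Between the titles, 7 of 8 choroid plexus markers were higher by limma, against 23.4% of all rows, while 9.71% of all rows were lower. The choroid plexus means were 7.27 and 7.55 for titled ketamine, against 6.62 and 6.65 for titled saline. Of 12 Hox genes, which keep the pattern of the hindbrain and spinal cord, 6 were higher and 1 lower. Their means were 4.50 and 4.71 for titled ketamine, against 3.98 and 4.30 for titled saline. Of those called, only Hoxb2 was above the olfactory receptor level on all 4 arrays. Hoxa2, Hoxa3, Hoxc4, Hoxc5 and the lower Hoxb4 were under it on all 4 and Hoxa5 on 3, so that their sizes are not resolved. Of 8 astrocyte markers 4 were higher and 1 lower, with means of 9.52 and 9.56 for titled ketamine, against 9.13 and 9.05 for titled saline, and of 7 oligodendrocyte markers none passed. The part of these cells and regions in the values of the 9 genes was not tested.

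The other genes of the same pathways were tested with limma, with p-values adjusted over all rows. Of 52 genes listed, 41 were measured, of which 10 were higher for titled ketamine at an adjusted p under 0.05, 5 were lower and 26 did not pass. Over all rows 23.4% were higher and 9.71% lower. Their median difference was 0.11, against 0.13 for all rows. The balance rested on the scaling: after quantile normalization 6 were higher and 10 lower, and 5 were higher and 9 lower once array medians were made equal. The lower calls gained under both were Pcbd1, Pdxk, Hnmt and Insm1.

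The hydroxylases need tetrahydrobiopterin, which the product of Gch1 begins to make and that of Qdpr regenerates. Of 7 measured genes of this cofactor, 1 was higher and 6 did not pass. Gchfr, the feedback regulator of the first step, read 5.32 and 5.42 on the arrays titled ketamine, against 4.92 and 4.92 on the arrays titled saline, a difference of 0.45 (limma, adjusted p = 0.0175), and this call was absent under either other scaling. Pcbd1, which helps to recycle the cofactor, differed by -0.43 (adjusted p = 0.106), by -0.17 without titled ketamine array 1 and by -0.68 without array 2. Pcbd2 differed by 0.18 and Gch1 by -0.16. Gch1 was under the olfactory receptor level on all 4 arrays.

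Of 4 measured genes of other amine synthesis, none passed at an adjusted p under 0.05 by limma and none at an unadjusted p under 0.05. Aanat, which acts in melatonin synthesis, differed by 0.25, Hdc, the histamine-forming enzyme, by 0.24, and Pnmt, the adrenaline-forming enzyme, by 0.02. Tph1, the tryptophan hydroxylase of pineal gland and gut, differed by -0.23 and was under the olfactory receptor level on all 4 arrays. It read 3.96 and 4.04 on the arrays titled ketamine, against 4.07 and 4.39 on those titled saline, without the gap that Tph2 showed. After quantile normalization Tph1 passed as lower, with a difference of -0.39.

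Among 4 genes that supply cofactors, Cyb561, an electron carrier of secretory vesicles, was lower and Atp7a, a copper pump, was higher. Cyb561 read 7.44 and 7.85 on the arrays titled ketamine, against 8.51 and 8.87 on the arrays titled saline, a difference of -1.05 (limma, adjusted p = 0.00486). Atp7a differed by 0.42 (adjusted p = 0.0219), a call absent under either other scaling. Pdxk, which makes the vitamin cofactor of the decarboxylase, differed by -0.27 and Slc23a2, an ascorbate carrier, by -0.13, and neither passed.

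Of 6 measured transporters, 2 were higher, 1 lower and 3 did not pass. Slc6a2, the noradrenaline transporter, is, like Dbh, a gene of noradrenaline neurons. It read 5.10 and 5.70 on the arrays titled ketamine, against 4.52 and 4.43 on the arrays titled saline. Its difference was 0.92 (limma, adjusted p = 0.0106). On titled saline array 2 it was barely above the olfactory receptor level, at 4.434 against 4.428. Slc29a4, a low-affinity carrier of monoamines, read 7.54 and 7.59 on the arrays titled ketamine, against 6.70 and 6.56 on the arrays titled saline, a difference of 0.93 (adjusted p = 0.00107). Slc22a2, an organic cation carrier named after its values were seen, differed by -0.49 (adjusted p = 0.0177) and was under the olfactory receptor level on both arrays titled ketamine, so that the size is not resolved. Slc10a4, a vesicle protein of monoamine and cholinergic neurons, read 4.04 and 5.43 on the arrays titled ketamine, against 5.56 and 5.30 on the arrays titled saline. It was the 1 gene of the 41 with a gap over 1 between the arrays titled ketamine, and its low array was the one on which Tph2 was low. There it was under the olfactory receptor level. Its difference was -0.69 (adjusted p = 0.212), and 0.005 without titled ketamine array 1 and -1.39 without array 2. Slc18a1, the vesicular carrier of endocrine cells, was under the olfactory receptor level on all 4 arrays.

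Of 7 measured enzymes of further breakdown, 3 were higher, 1 was lower and 3 did not pass. Aldh1a1, an aldehyde dehydrogenase that is also known from a part of the midbrain dopamine neurons, read 10.22 and 10.13 on the arrays titled ketamine, against 8.49 and 8.15 on the arrays titled saline, a difference of 1.85 (limma, adjusted p = 0.000155). Aldh1b1, a mitochondrial member of the family, read 5.001 and 5.25 on the arrays titled ketamine, against 6.31 and 6.35 on the arrays titled saline, a difference of -1.20 (adjusted p = 0.000573). Rnls, which encodes the flavoprotein renalase, and Aldh3a2, a fatty aldehyde dehydrogenase, differed by 0.53 and 0.47 (adjusted p = 0.0235 and 0.0151). The first 2 genes differed by over 2-fold in opposite directions, the call on Rnls was absent under either other scaling, and that on Aldh3a2 after centring.

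Of 13 measured transcription factors of monoamine neurons, 3 were higher, 2 lower and 8 did not pass. En2, at 9.19 and 8.76 on the arrays titled ketamine, against 4.85 and 4.68 on the arrays titled saline, had a difference of 4.21 (limma, adjusted p = 2.01e-05), and it is on the cerebellar list as well. Tfap2b, known also from cerebellar interneurons, read 7.63 and 7.28 on the arrays titled ketamine, against 4.99 and 4.64 on the arrays titled saline, a difference of 2.64 (adjusted p = 7.89e-05). Nr4a2, a nuclear receptor needed by dopamine neurons and also made in cortex, read 6.65 and 6.02 on the arrays titled ketamine, against 7.63 and 7.59 on the arrays titled saline. Its difference was -1.27 (adjusted p = 0.00326), and like Slc6a3 it read lower on array 2 titled ketamine than on array 1. Gata3, a factor of serotonin neurons, read 4.39 and 4.67 on the arrays titled ketamine, against 5.36 and 5.56 on the arrays titled saline, a difference of -0.93 (adjusted p = 0.00269). Its value on titled ketamine array 1 was under the olfactory receptor level, so that the size is not resolved. Gata2, named after its values were seen, differed by 0.37 (adjusted p = 0.0448), a call absent under either other scaling.

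**Figure D4:**
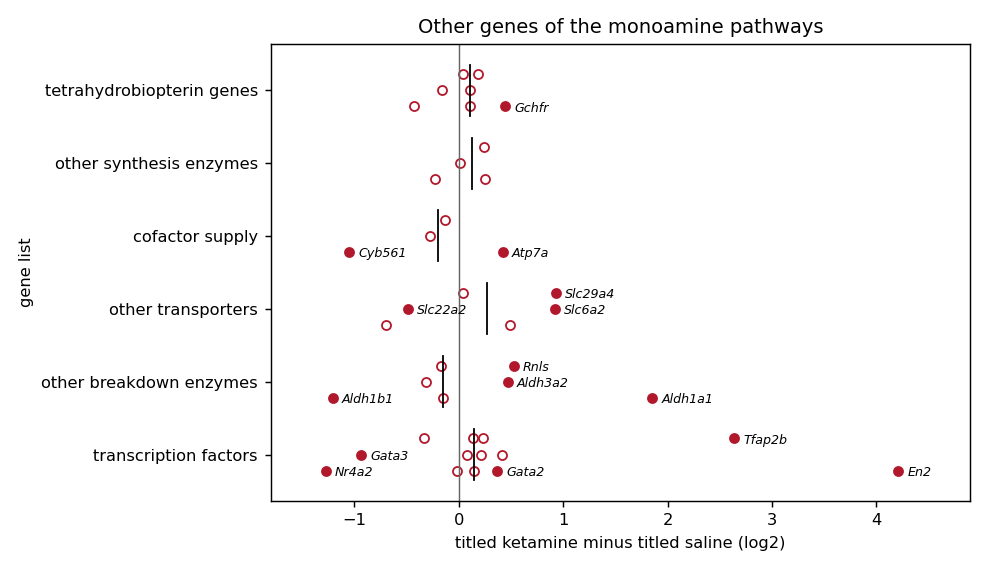
Difference between titled ketamine and titled saline on the log2 scale (x axis) for 41 other genes of the monoamine pathways in 6 lists (y axis); points are genes, filled and named where the adjusted p from limma was under 0.05, and bars are list medians. En2, at 4.21, and Tfap2b, at 2.64, lie furthest to the right, and Nr4a2, at -1.27, furthest to the left.

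An exact permutation test of 2 arrays against 2, two-sided, cannot give a p below 0.333, and p-values from limma measure the spread between these arrays only. When either array titled ketamine was left out, limma passed none of the 41 genes and none of all rows. An unadjusted p under 0.05 was then found for 5974 rows (array 1 left out) and 6461 rows (array 2 left out).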

How the data were processed

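Expression was measured in 4 samples on one-colour arrays. The deposited values are log2 signals that the authors computed with RMA from core exon probes in Expression Console. Neither the software version nor the build is given in the sources used here. As usually run, RMA corrects background, equalises the distributions of the arrays and summarises probes into 1 value per transcript cluster, which compresses low values and can remove a shift of most genes; the medians of the rows used still differed between the titles. Of 35556 rows, 21789 had 1 gene symbol in the platform annotation, 1621 several and 12146 none; those with 1 symbol were used, and listed genes outside them were not analysed here. Groups follow the titles, which the source field contradicts.

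Rows were fitted, without a filter, by the lmFit and eBayes functions of limma 3.58.1 (R 4.3.3), and p-values were adjusted by Benjamini-Hochberg over all rows. The fit was tested on simulated data. The 9 genes, the pathway and marker lists and the cutoffs were chosen with earlier results of these data known; no p is given for the 9 genes. Named genes were the 9, up to 4 of each pathway list with the largest difference, any with a gap over 1 within a title, and the nearest rows in pattern. Markers named outside it were chosen after their values were seen, as were Slc22a2 and Gata2. These markers were Tbr1, Htr1a, Htr5b, Slc17a8, Pitx3, Chrna6, Chrnb3, Ntsr1, Phox2a, Chat, the Hox genes and the hypothalamic genes. Alternatives covered scaling, moderation, dim rows, 1 row per gene, the replicate number and each array left out.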

Additional observations from a re-analysis of the deposited data

How the results depend on the processing

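The differences of the 9 genes kept their sign in all 54 recomputations with quantile normalization, median centring or 1 array left out. As none of the 9 overlapped between the titles, leaving out 1 array could not turn a sign, so nothing is read from that part. At a 2-fold cutoff 1 of the 9 was higher and 3 lower, against 3.69% and 2.98% of all rows. With each array left out in turn, 2 to 3 were higher and 3 to 6 lower past 1.3-fold, the lowest count without titled ketamine array 1. Of the 41 pathway genes, 6 were higher and 10 lower after quantile normalization, and 5 and 9 after median centring. With 1 array left out, 0 to 5 were higher and 0 to 4 lower: none without titled ketamine array 1 or 2, 5 and 4 without titled saline array 1, and 5 and 2 without titled saline array 2. A lone array is then assumed to vary like the other group. With the replicate block 12 were higher and 7 lower. Neither the titles nor the methods say whether arrays of the same number share anything else. The gaps of the 2 titles correlated at 0.034 over rows, which cannot settle it. Sizes are not resolved for values under the olfactory receptor level, which touches Tph2, Dbh, Slc10a4, Slc22a2, Gata3, Pmch and Trh. It also touches Gch1, Tph1, Pnmt, Aanat, Slc18a1, Phox2a and Tbr1, and further genes of the marker lists, among them most Hox genes.

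Of 407 recomputed differences of pathway genes 23 changed sign, none of them a called gene. The called genes did not overlap between the titles, so leaving out 1 array could not turn their signs. With quantile normalization these were Pts (-0.102), Spr (-0.029), Pnmt (-0.147), Slc18b1 (-0.104), Pitx3 (-0.008) and Foxa1 (-0.065). With median centring they were Pts (-0.093), Spr (-0.029), Qdpr (-0.023), Pnmt (-0.120), Slc18b1 (-0.097) and Foxa1 (-0.052). With 1 array left out, Pts ranged from -0.026 to 0.113, Qdpr from -0.096 to 0.323, Pnmt from -0.145 to 0.176, Slc10a4 from -1.389 to 0.005, Pitx3 from -0.102 to 0.381, Foxa1 from -0.055 to 0.223, En1 from -0.010 to 0.439 and Hand2 from -0.116 to 0.088.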

Other observations

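Genes of the hypothalamus, where histamine neurons and a group of dopamine neurons lie, were not part of the comparisons above. Of 8 measured markers, 6 were lower on the arrays titled ketamine and none higher by limma. Among all rows 9.71% were lower and 23.4% higher. Pmch, the precursor of melanin-concentrating hormone, read 3.68 and 4.11 on the arrays titled ketamine, under the olfactory receptor level, and 7.04 and 7.25 on the arrays titled saline, a difference of -3.26 whose size is not resolved. Hcrt, the orexin precursor, read 5.25 and 5.21 on the arrays titled ketamine, against 5.94 and 5.96 on the arrays titled saline, a difference of -0.72 (limma, adjusted p = 0.00254). Trh, the precursor of thyrotropin-releasing hormone, read 4.22 and 5.38 on the arrays titled ketamine, against 6.47 and 6.50 on the arrays titled saline. Its lower value, on titled ketamine array 1, was under the olfactory receptor level. For titled ketamine, array 2 was above array 1 in 4 of the 8 hypothalamic markers, with a median gap of 0.048. All calls were absent without titled ketamine array 1 or 2.

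Among rows with a gap over 1 between the arrays titled ketamine, those next in size to Tph2 were Necab1, which encodes a neuronal calcium-binding protein, at 5.53 and 7.57, and Slc5a7, the choline transporter, at 4.88 and 6.86. On the arrays titled saline Necab1 read 9.48 and 9.53, above both arrays titled ketamine, and Slc5a7 read 6.16 and 6.03, between them.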
